A study of Ovis aries with 5 samples.

Results

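Lysosomal proteases cut internalised proteins into the peptides that MHC class II molecules display to helper T cells, and they trim the invariant chain that guards the class II groove. Cathepsins B and S are cysteine proteases of the papain family, cathepsin D is an aspartic protease, and legumain is an asparaginyl endopeptidase that also processes other lysosomal proteases. Dendritic cells (DC) carry these enzymes in their endosomes and lysosomes, where their activity is held in check so that epitopes survive.

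Of the 831 genes with a symbol on a sheep array, 4 of this group are described: CTSB (cathepsin B), CTSD (cathepsin D), CTSS (cathepsin S) and LGMN (legumain). Their probes were taken by gene name or description from the array's own annotation, without use of any measured value, which gave 6 of 15008 distinct probes: 1 each for CTSB and CTSS, and 2 each for CTSD and LGMN. Every description that named 1 of these enzymes belonged to a probe that also carried the gene's symbol. The 4 genes themselves were chosen with earlier results of these data known.

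DC had been sorted from the skin lymph of sheep (Ovis aries), whose age, breed and treatment are not given in the sources used here. The groups were CD1b+CD26+ cells of sheep 30066 and 10081 (2 arrays), CD1b+CD26- cells of the same 2 sheep (2 arrays), and total enriched lymph DC, drawn from sheep other than these and used as the common reference, hybridised against itself (1 array). Sorted cells were labelled with Cy3 and the reference with Cy5 on every array, with no dye swap. The sample labels name the reference as total DC, while the labelling protocol speaks of RNA from a cultured cell line, LP-1cl1; it is called total DC here, as on the samples. Each sheep is a biological replicate, so n = 2 per subset.

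Across the 5 arrays 80.8% to 88.8% of probes were well above background in Cy3, and 13252 were tested. A set of 50 probes was printed at 5 spots each, and the median SD of the log2 ratio among spots of 1 probe was 0.078 to 0.098 on the 5 arrays, which is the spot-to-spot error. The SD over all tested probes was 0.29 on the self-hybridisation, where both dyes held the same RNA, and 1.18 to 1.42 on the subset arrays. The DC label could be checked on few genes: of 20 listed DC markers 3 had a named probe. CD1, a lipid antigen-presenting molecule, was well above background on all 5 arrays and FCER1A, a chain of the receptor for IgE, on 4, while the probe named CD1B, after the sort marker, was so on 1 array and was not tested. Between the subsets CD1 stood at 1.78 (SE 0.38) and FCER1A at -1.64 (SE 0.36), and neither passed (limma adjusted p = 0.774 for both). FCER1A stood at -3.08 in CD26+ and -1.45 in CD26- cells against the self-hybridisation. The arrays hold no named probe of the listed B cell or neutrophil markers.

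The probes are 60 bases long, and they are shown because they decide what each value can stand for. The scanner files place none of them on a genome (each is marked unmapped), so no position, exon or strand is given. The CTSD pair comes from 1 record of a partial cathepsin D mRNA, and capitals mark the 59 bases that both probes share: they are shifted by 1 base and cannot be read as independent measurements of the gene. The CTSB and CTSS probes come from expressed sequence tags, and each has at least 1 reading frame with no stop codon over its whole length.
CTSB: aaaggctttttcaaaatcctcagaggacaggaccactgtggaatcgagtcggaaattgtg
CTSD, probe a: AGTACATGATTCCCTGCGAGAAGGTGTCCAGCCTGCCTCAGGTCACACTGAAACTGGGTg
CTSD, probe b: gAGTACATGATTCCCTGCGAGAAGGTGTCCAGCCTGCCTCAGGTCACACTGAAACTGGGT
CTSS: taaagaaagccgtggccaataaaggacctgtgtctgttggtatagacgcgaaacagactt

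The LGMN probes, called a and b below, come from 1 expressed sequence tag, overlap by 40 bases at a shift of 20, and hold a stop codon in all 3 frames of the strand given, so they are not shown. The GC content was 45% for CTSB and CTSS, 55% for both CTSD probes and 43.3% for both LGMN probes. A gene with 2 probes is summarised by the brighter one, probe b in both cases.

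All 6 probes were well above background in Cy3 on every array by the scanner's own calls, and none was saturated. The weakest were those of CTSD, whose Cy3 signal was 6.05 to 13.5 times the local background. The Cy3 signal was 46.4 to 155 times the background for CTSB, 235 to 299 times for CTSS, and 110 to 265 times for the LGMN probes. Levels of different probes are not set against each other, because probes differ in how well they bind. A single spot was lost: the CTSS spot on the CD26- array of sheep 10081 carried the scanner's outlier flag and was left out, so CTSS has 1 value in CD26- cells.

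**Figure D1:**
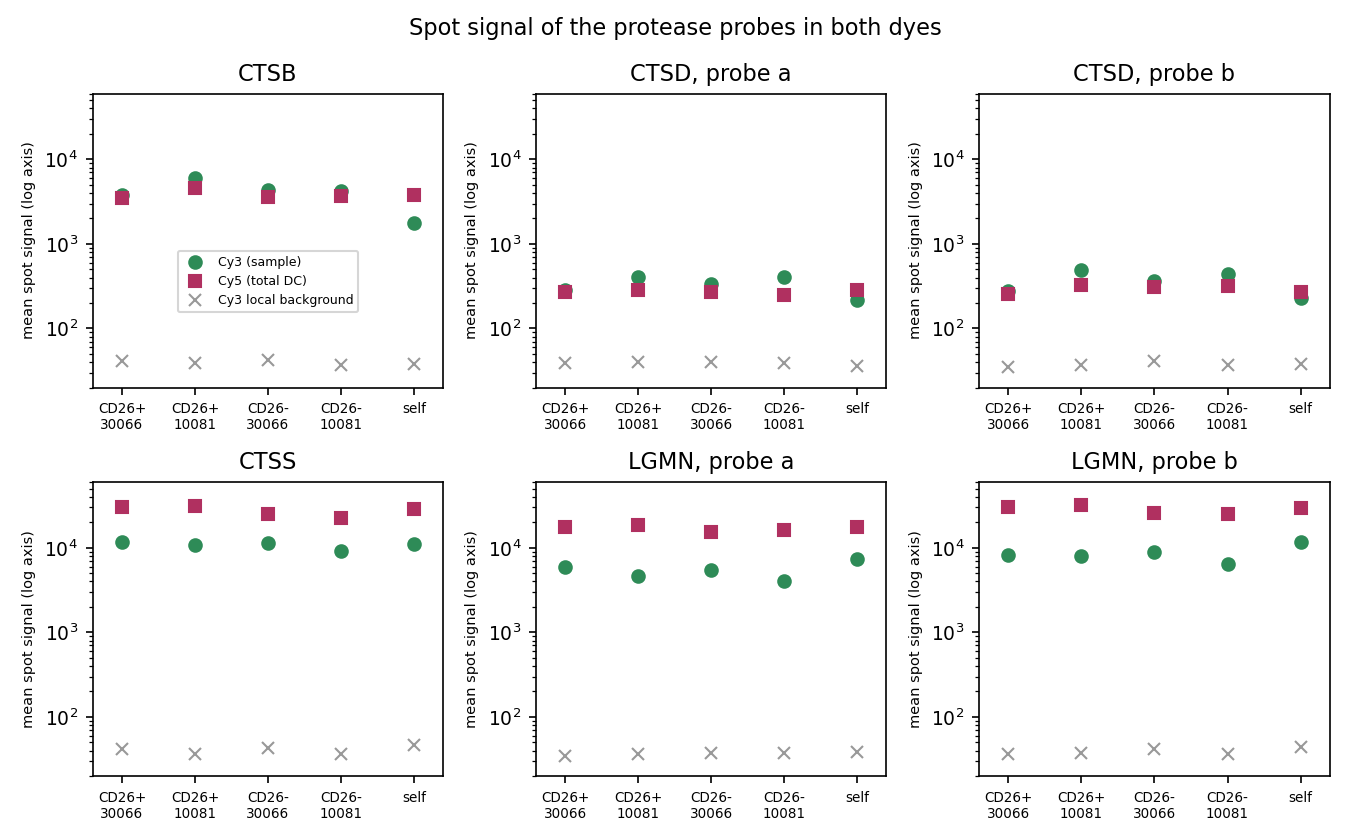
Mean spot signal (log axis, scanner units) of each protease probe on the 5 arrays, with Cy3 for the hybridised sample, Cy5 for total DC, and the local Cy3 background. Every spot stands well above its background, the CTSD probes by the smallest factor; CTSB has a higher Cy3 signal on the 4 subset arrays (3762 to 6029) than on the self-hybridisation (1764). The CTSS spot of CD26- cells of sheep 10081 is drawn although it was flagged.

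The Cy5 channel held the same RNA on all arrays and so shows how steady each probe was. Centred on the array median, the log2 Cy5 signal had an SD over the 5 arrays of 0.082 for CTSB, 0.12 and 0.14 for the CTSD probes, 0.22 for CTSS, and 0.11 and 0.15 for the LGMN probes. The median of this SD over all spots was 0.24. The scanner software's own error of the log2 ratio was 0.20 to 0.24 for each of these spots.

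CTSB, an endo- and exopeptidase of lysosomes, was the gene of the 4 with the highest log ratio against total DC in both subsets. Its Cy3 signal was 3762 in CD26+ cells of sheep 30066 and 6029 in those of sheep 10081, 4343 and 4238 in CD26- cells of the same sheep, and 1764 on the self-hybridisation, while the Cy5 signal lay between 3468 and 4524 on all arrays. After normalisation the log2 ratio of sample over total DC was 1.26 and 1.66 in CD26+ cells (sheep 30066 and 10081), 1.30 and 1.25 in CD26- cells, and 0.12 on the self-hybridisation. All 4 subset arrays lay above the self-hybridisation, and the subsets overlapped. Total DC came from other sheep than the subsets, and no array holds total DC of the subset sheep. A difference of either subset from total DC therefore cannot be told apart from a difference between animals or between RNA samples. This limit holds for CTSB and equally for LGMN, CTSD and CTSS below. In bulk RNA of sorted cells, the share of cells that hold a transcript and its amount per cell cannot be told apart.

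Against the self-hybridisation the limma estimate for CTSB was 1.34 (SE 0.44, n = 2 sheep) in CD26+ cells, a 2.54-fold difference with a 95% interval of 1.11 to 5.78. It was 1.16 (SE 0.44) in CD26- cells, 2.23-fold with an interval of 0.979 to 5.09. Neither passed after Benjamini-Hochberg adjustment over all tested probes (limma adjusted p = 0.403 in CD26+ and 0.484 in CD26- cells), and limma called 0 of 13193 probes in each of these comparisons (0% of probes), with 1493 and 1401 at an unadjusted p under 0.05. The 2 comparisons share the self-hybridisation array. CTSB was at least 2-fold higher in both sheep in CD26+ cells, as were 9.9% of probes, and in CD26- cells, as were 10.2%. On each of the 4 subset arrays it was at least 2-fold above it, by 1.13 to 1.55 on the log2 scale, as were 5.66% of all probes measured on these arrays. The lowest of the 4 fell short of 2-fold in 2 settings, at 0.88 when loess gave way to median centring and at 0.84 on the scanner software's processed signals. With the self-hybridisation left out and the log ratios tested against 0, CTSB passed in CD26+ cells (1.46, limma adjusted p = 0.0462) as did 8.91% of probes, and it did not in CD26- cells (1.27, adjusted p = 0.0584), where 8.17% did. That fit does not subtract the self-hybridisation.

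LGMN read on the other side of total DC, though no difference passed. For probe b the log2 ratio was -0.52 and -0.59 in CD26+ cells of sheep 30066 and 10081, -0.28 and -0.64 in CD26- cells, and 0.03 on the self-hybridisation. Probe a gave -0.30 and -0.63 in CD26+ cells, -0.33 and -0.78 in CD26- cells, and 0.06 on the self-hybridisation. All 8 values of the subset arrays were below those of the self-hybridisation, which 27% of probes showed on all 4 subset arrays at any size.

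Against the self-hybridisation LGMN probe b stood at -0.58 (SE 0.44) in CD26+ and -0.48 (SE 0.44) in CD26- cells, and probe a at -0.53 (SE 0.47) and -0.62 (SE 0.47). These correspond to 0.65 to 0.72 of the level in total DC, and the limma adjusted p was 0.690 to 0.791. No LGMN probe was 2-fold lower in both sheep, which 8.81% of probes were in CD26+ cells, 7.51% in CD26- cells and 3.8% on all 4 arrays.

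CTSD, the aspartic protease, had log2 ratios above 0 on all arrays, the self-hybridisation included. Probe b gave 0.87 and 1.25 in CD26+ cells (sheep 30066 and 10081), 0.87 and 0.98 in CD26- cells, and 0.66 on the self-hybridisation. Probe a gave 0.82 and 1.09 in CD26+ cells, 0.90 and 1.17 in CD26- cells, and 0.54 on the self-hybridisation. Much of the ratio was thus present with total DC in both dyes, so CTSD is set against the self-hybridisation and not against 0.

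With that array as the base, CTSD probe b was at 0.40 (SE 0.44) in CD26+ and 0.26 (SE 0.44) in CD26- cells, and probe a at 0.41 (SE 0.44) and 0.49 (SE 0.44). All subset values lay above the self-hybridisation, as for 23.5% of probes, and none passed (limma adjusted p of 0.790 to 0.896). When every spot entered the background model, the CD26- value was -0.05 for probe b and 0.06 for probe a.

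CTSS, a cathepsin that trims the invariant chain in DC, was the closest to total DC in the reported fit. That rank depended on the processing. With median centring CTSS stood at -0.43 in CD26+ cells against total DC, and CTSD probes a and b at 0.28 and 0.24. When every spot entered the background model, CTSS stood at 0.08 in CD26- cells, and CTSD probes a and b at 0.06 and -0.05. Its log2 ratio was 0.00 and -0.12 in CD26+ cells of sheep 30066 and 10081, 0.15 in CD26- cells of sheep 30066, and -0.01 on the self-hybridisation. The deposited log ratio of the flagged spot was -0.23, against -0.09 and -0.30 in CD26+ cells and -0.04 in CD26- cells of sheep 30066 in the same deposited values, so it lay within the range of the other arrays. The estimate against the self-hybridisation was -0.06 (SE 0.47) in CD26+ cells and 0.16 (SE 0.54) in CD26- cells, with a limma adjusted p of 0.982 and 0.959. The 95% interval in CD26+ cells ran from 0.364-fold to 2.54-fold.

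**Figure D2:**
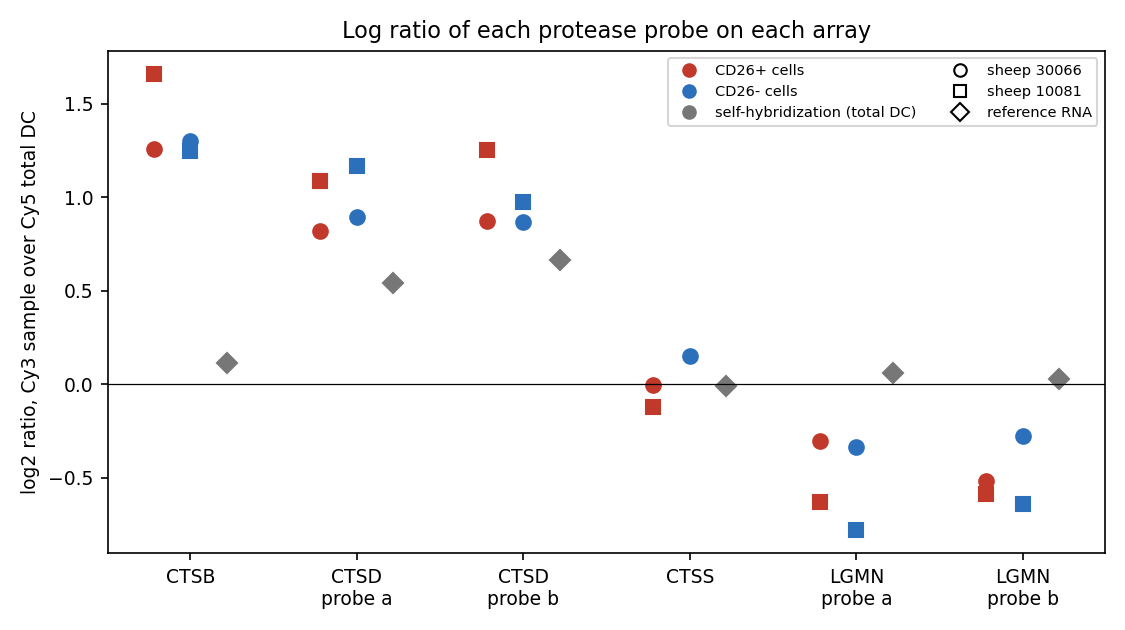
Log2 ratio of Cy3 sample over Cy5 total DC (vertical axis) for each protease probe, with CD26+ cells, CD26- cells and the self-hybridisation from left to right within a probe, and a symbol per sheep. CTSB lies at 1.25 to 1.66 in both subsets against 0.12 for total DC itself, LGMN lies below the self-hybridisation, CTSD above it, and CTSS around 0.

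The comparison the study was built for, CD26+ against CD26- cells, gave small values for every protease probe. CTSB stood at 0.18 (SE 0.36), CTSD at 0.14 (SE 0.36) for probe b and -0.08 (SE 0.36) for probe a, LGMN at -0.10 (SE 0.36) for probe b and 0.09 (SE 0.38) for probe a, and CTSS at -0.21 (SE 0.47; 1 CD26- array). limma called 0 of 13252 probes (0%; smallest adjusted p = 0.767, 746 probes at an unadjusted p under 0.05), and the limma adjusted p of each of the 6 protease probes was 1.0. No protease probe had an unadjusted p under 0.05.

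The paired probes of CTSD and of LGMN differed in sign, so their direction is not settled by these arrays. The median of the 4 genes was 0.02, and that of all tested probes was -0.01. The median size, regardless of direction, was 0.16 for the 4 genes and 0.37 for all tested probes.

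Within each sheep the values were also small. In sheep 30066 the CD26+ minus CD26- difference was -0.05 for CTSB, 0.01 for CTSD probe b, -0.08 for CTSD probe a, -0.15 for CTSS, -0.24 for LGMN probe b and 0.03 for LGMN probe a. In sheep 10081 it was 0.41 for CTSB, 0.27 and -0.08 for CTSD probes b and a, and 0.05 and 0.15 for LGMN probes b and a. Each was under 2-fold, as were 63.8% of all probes in both sheep. CTSB and LGMN probe b had opposite directions in the sheep, as did 43.9% of all probes. The largest, that of CTSB in sheep 10081, came from the CD26+ array, which read 1.66 where the other 3 subset arrays read 1.25 to 1.30.

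The 95% interval of the fold between CD26+ and CD26- cells ran from 0.58 to 2.23 for CTSB, 0.565 to 2.15 for CTSD probe b, 0.483 to 1.82 for LGMN probe b and 0.326 to 2.28 for CTSS. The arrays do not show that the subsets are alike within narrower limits than these.

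**Figure D3:**
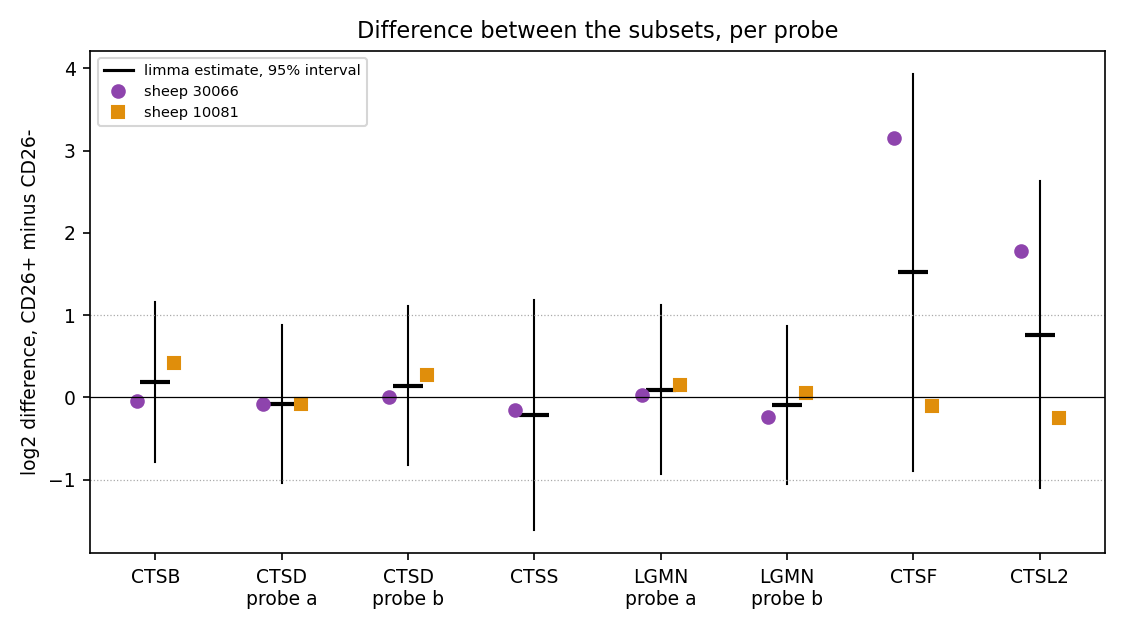
Log2 difference of CD26+ minus CD26- cells (vertical axis) for the protease probes and for 2 further cathepsins, as the limma estimate with its 95% interval and the difference within each sheep. The 6 probes of CTSB, CTSD, CTSS and LGMN lie between -0.21 and 0.18, while CTSF and CTSL2 lie at 3.15 and 1.78 in sheep 30066 and just below 0 in sheep 10081. Dotted lines mark a 2-fold difference; CTSS has no value in sheep 10081.

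**Figure D4:**
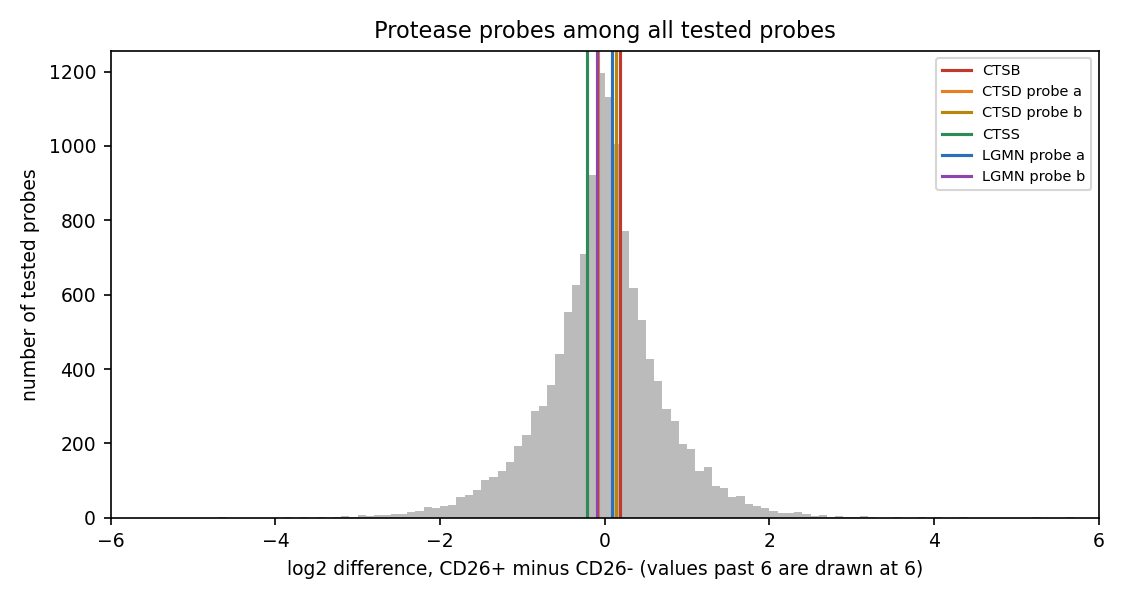
Number of tested probes (vertical axis) by their log2 difference of CD26+ minus CD26- cells, in steps of 0.1, with coloured lines at the 6 protease probes. All 6 lines fall in the central peak of the distribution, whose median size is 0.37. The lines of CTSD probe a (-0.08) and LGMN probe b (-0.10) nearly coincide.

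Over the 4 subset arrays together the protease probes varied little. The SD of the log2 ratio was 0.20 for CTSB, 0.16 and 0.18 for the CTSD probes, 0.14 for CTSS (3 arrays), and 0.23 and 0.16 for LGMN probes a and b, against a median of 0.51 over 13249 probes. For LGMN and CTSD, values of both subsets differed in the same direction between the animals. The share of all probes that did so was not computed, so this is not read as a trait of these genes. Across probes, deviations from the group mean within a sheep had a correlation of 0.33. The 2 probes of each gene overlap and are not independent. LGMN was higher in sheep 30066 than in sheep 10081 in both subsets, by 0.07 in CD26+ and 0.36 in CD26- cells for probe b, and by 0.32 and 0.45 for probe a. CTSD was lower in sheep 30066, by 0.38 and 0.11 in CD26+ and CD26- cells for probe b (-0.38 and -0.11) and by 0.27 in each for probe a (-0.27 and -0.27). CTSB did not keep one direction: sheep 30066 minus sheep 10081 was -0.41 in CD26+ and 0.06 in CD26- cells. Among the 6 measured T cell markers, CD3D and CD3E had higher log ratios in sheep 10081 than in sheep 30066 in both subsets, and CD4 slightly so. CD247 went the other way, at -0.30 and -1.45 in CD26+ cells of sheep 30066 and 10081, and -1.92 and -2.53 in CD26- cells. CD5 and GATA3 did not keep one direction over the subsets. The part of these markers in the protease values was not tested. CD3D, a chain of the T cell receptor complex, had a log2 ratio of 0.10 in CD26+ and 1.41 in CD26- cells of sheep 30066, and of 3.18 and 4.11 in those of sheep 10081. CD3E of the same complex had 0.96 and 1.23 in sheep 30066, and 2.39 and 1.43 in sheep 10081. The animal cannot be told apart from the row of the slide, since each sheep had a row of its own.

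The genes whose values over the arrays lay nearest to each member were found among up to 699 named genes as those with the smallest root mean square difference of the log2 ratio. For CTSB they were ICAM1, an adhesion molecule that binds LFA-1 on T cells (0.30), CFL1, the actin-severing protein cofilin (0.34), and ENO3, a glycolytic enolase (0.36), against a median of 1.27 over all genes compared. For LGMN they were PAG3, KITLG and CENP-C at 0.11 to 0.13 over 5 arrays, against a median of 0.68. For CTSS they were GUCY1B1, PAX6 and CHRM3 at 0.029 to 0.035 over 4 arrays (median 0.46). For CTSD they were HRH2, EDNRA and GSTA1 at 0.20 to 0.21 (median 1.03). Each gene was compared by its closest probe. The log ratios of CTSS lay near 0, so genes with ratios near 0 on these arrays lie close to it. Shared regulation was not tested. Among the 4 genes themselves the nearest pairs were CTSS and LGMN (0.41, over 4 arrays) and CTSB and CTSD (0.42, over 5 arrays). The order of these pairs is not settled, since their arrays differ. CTSB and LGMN were the farthest apart (1.69). All distances in this paragraph use log ratios from which the self-hybridisation was not subtracted. CTSD probe b read 0.66 on that array and CTSB 0.12, so the distances of CTSD, that to CTSB included, hold this offset. Distances after subtraction were not computed.

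Other lysosomal proteases were represented by 2 of 22 listed genes, CTSF and CTSL2, and neither was called. CTSF, cathepsin F, is a cysteine protease that can process the invariant chain in mouse macrophages. Its brighter probe had a Cy3 signal of 1346 and 593 in CD26+ cells of sheep 30066 and 10081, 104 and 857 in CD26- cells, and 50.4 on the self-hybridisation, where it was not well above background. The log2 ratio was 4.02 and 3.02 in CD26+ cells, against 0.87 and 3.13 in CD26- cells. CD26- cells of sheep 30066 thus read low while the other 3 subset arrays read high. The Cy5 signal of this probe was 66.5 to 143 on the 5 arrays, where the array medians were 362 to 412. The size of these ratios therefore rests on a dim reference signal. The difference of CD26+ minus CD26- cells was 1.52 (SE 0.90, limma adjusted p = 0.958), with 3.15 in sheep 30066 and -0.11 in sheep 10081, and the second CTSF probe gave 1.22. Without the CD26- array of sheep 30066 it was 0.39.

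CTSL2 had a Cy3 signal of 195 in CD26+ cells of sheep 30066 and of 58.7, 65.1 and 69.1 on the remaining subset arrays, with 55.8 on the self-hybridisation. It was well above background on 3 of 5 arrays, and the difference between the subsets was 0.76 (SE 0.70, adjusted p = 0.996). Without the CD26+ array of sheep 30066 it was -0.13.

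Of 57 other listed lysosomal proteins 5 were measured and none was called. Both sheep had lower values in CD26+ cells for 4 of them, as for 28.6% of all probes, and the median was -0.51. NPC2, the cholesterol carrier of the lysosome lumen, had the largest difference, at -2.82 (SE 0.51, limma adjusted p = 0.774). Its log2 ratio was -3.27 and -2.14 in CD26+ cells, against 0.08 and 0.15 in CD26- cells and -0.35 on the self-hybridisation; 2.98% of all probes were at least 2-fold lower in both sheep. PSAP, the precursor of the saposins that help degrade sphingolipids, stood at -0.51 (SE 0.34), and the 3 subunits of the proton pump that acidifies lysosomes, ATP6V0C, ATP6V1B2 and ATP6V1E1, at 0.12, -0.52 and -0.41. PSAP was at 0.84 (SE 0.42) in CD26+ and 1.35 (SE 0.42) in CD26- cells against the self-hybridisation.

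Of 18 listed genes of class II loading 7 were measured, all of them class II chains. Each of the 7 had a higher value in CD26+ than in CD26- cells of either animal, as did 27.6% of all probes, 5 with a difference of 2-fold or more in the pair of animals, which 2.42% of all probes showed. Their median was 1.49. No chain passed the test, and no test of the difference between the chains and the proteases was run. No named probe was found for any of the 14 listed protease inhibitors such as the cystatins, for the invariant chain CD74 or for the thiol reductase IFI30.

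Markers of other cells were few, and their part in the protease values was not tested. Of 14 listed monocyte and macrophage markers 2 were measured, CD14 and CHI3L1. Each had a lower value in CD26+ than in CD26- cells of either animal, as did 28.6% of all probes, with a median of -0.94. The 2 CD14 probes differed by -0.09 and -0.32 in sheep 30066, and by -1.98 and -1.87 in sheep 10081. Of 14 T cell markers 6 were measured, with 2 higher and 3 lower in both sheep, as were 27.6% and 28.6% of all probes. The median was 0.14. The NK cell list had 1 measured gene, GNLY (granulysin, a protein of cytotoxic granules). Its brightest probe stood at 3.24 with no CD26- value in sheep 10081, and its 3 other probes at 0.78, 1.11 and 1.04. Those 3 were at 1.98 to 2.67 in sheep 30066 and at -0.46 to -0.42 in sheep 10081. The lists of Langerhans cells and keratinocytes and of red cells had 1 measured gene each, at -1.25 and 0.06, and that of stroma and endothelium had 2, with a median of -0.08.

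**Figure D5:**
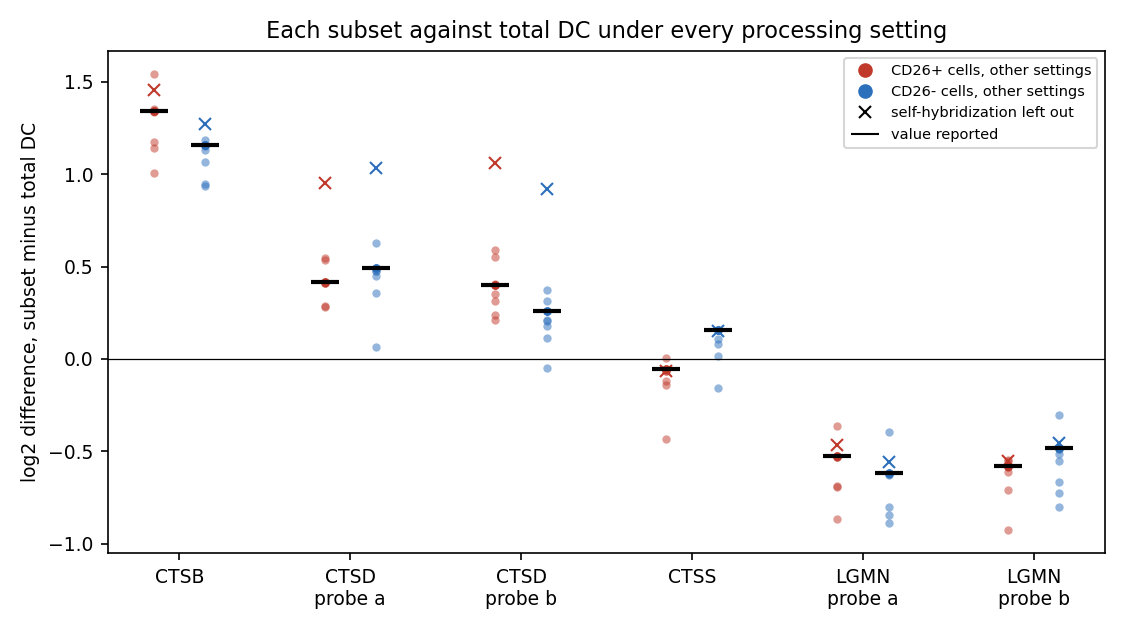
Log2 difference of each subset minus total DC (vertical axis) for each protease probe under every processing setting tried, with CD26+ cells to the left of CD26- cells, the reported value as a bar and the fit without the self-hybridisation as a cross. CTSB stays between 0.93 and 1.55 and LGMN between -0.93 and -0.30 under all of them, the CTSD crosses lie near 1 since the self-hybridisation is not subtracted there, and CTSS lies on both sides of 0.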

How the data were processed

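RNA of 5 samples was hybridised to 2-colour Agilent arrays on a shared slide. The deposited scanner files give the mean intensity of each spot, linear and without normalisation, read, per the file headers, by Feature Extraction 9.5.3.1, and a log10 ratio of Cy5 over Cy3 processed signals. The deposited value table holds a log2 ratio that equalled the sign-turned scanner ratio to within 5e-10, so it is no separate measurement.

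Mean signals were background-corrected with normexp (offset 50; the model left out spots whose local background exceeded 5 times the array median), normalised by loess within arrays and turned into log2 ratios of Cy3 to Cy5 (limma 3.58.1, R 4.3.3). Control spots and outlier-flagged spots were left out. A probe was tested if at least 2 arrays had it well above background in Cy3: 13252 were, and 1756 dim ones were left out. In limma, 3 group means were fitted to 5 arrays with lmFit and eBayes (2 residual and 2.38 prior degrees of freedom), and p-values were adjusted by Benjamini-Hochberg over all tested probes. The spread of the self-hybridisation is taken from the subset arrays. Precision is limited by how few arrays there are.

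Symbols came from the files and a RefSeq table (assembly ARS-UI_Ramb_v3.0, names only): 1431 probes of 831 genes have one and 13577 have none here. All probes of the 4 genes are given. All genes of the lists of other proteases and inhibitors could be named, and from other lists at most 4, those at least 2-fold apart in both sheep first. NPC2 and CD247 met that rule. PSAP, the pump subunits, CD14, CHI3L1, GNLY, CD3D, CD3E, CD4, CD5 and GATA3 are named beyond it, after their values were seen. The members and lists were chosen with earlier results of these data known. Both subsets come from the same sheep, which pairs them; within a sheep, deviations from the group mean had a correlation of 0.33 across probes. Scripts were tested on simulated data. Alternatives covered background, normalisation, signals, filters, probes, the sheep as a block and leaving out arrays.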

Additional observations from a re-analysis of the deposited data

Results flagged for a closer look

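The difference of CD26+ minus CD26- cells had opposite directions in the 2 sheep for 2 of the 6 protease probes and for some probes of the other listed genes, with 1 array per subset and sheep, so that the difference between the sheep was not tested. It was -0.046 in sheep 30066 and 0.41 in sheep 10081 for CTSB, and -0.24 and 0.05 for LGMN probe b. It was 3.15 in sheep 30066 and -0.11 in sheep 10081 for the brighter CTSF probe, 2.91 and -0.48 for the second CTSF probe, and 1.78 and -0.25 for CTSL2. ATP6V0C had -0.25 in sheep 30066 and 0.49 in sheep 10081. The 2 probes of CD3E had -0.24 and -0.27 in sheep 30066, and 0.76 and 0.96 in sheep 10081. Of the GNLY probes 3 had 1.98, 2.67 and 2.51 in sheep 30066, and -0.43, -0.46 and -0.42 in sheep 10081. Opposite directions at any size were found for 43.9% of all probes.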

How the results depend on the processing

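The number of protease values recomputed under other settings was 241, and 229 of them kept their direction. Part of the 241 could not change by construction, so this share overstates how far the directions were tried. Filters on dim probes and scaling between arrays leave each estimate as it is. So does the sheep as a block where no array is missing. Leaving out an array of 1 subset leaves the other subset's difference from total DC unchanged. How many values this covers was not counted. The values that turned were 9 of 80 between the subsets, 1 of 81 between CD26+ cells and total DC, and 2 of 80 between CD26- cells and total DC. When every spot entered the background model, CTSD probe a stood at 0.47 between the subsets and CTSD probe b at -0.049 in CD26- cells against total DC. On the processed signals LGMN probe b stood at 0.017 between the subsets, and median centring gave CTSS -0.16 in CD26- cells against total DC. Leaving out 1 array, the difference between the subsets ran from -0.018 to 0.39 for CTSB, -0.21 to 0.058 for CTSD probe a, -0.048 to 0.33 for CTSD probe b, -0.13 to 0.31 for LGMN probe a, -0.28 to 0.085 for LGMN probe b and -0.13 to 1.66 for CTSL2. CTSS in CD26+ cells against total DC ran from -0.12 to 0.0032. The cause of these shifts was not tested.

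The calls stayed at 0 in each comparison under all settings run but 1. With the self-hybridisation left out, which makes the test one against 0, 1181 probes were called for CD26+ cells and 1083 for CD26- cells. CTSB was called in CD26+ cells at 1.46, and NPC2 at -2.71. With the sheep as a replicate block, 0 probes were called between the subsets, and 1123 in place of 746 had an unadjusted p under 0.05. Scaling intensities between arrays (Aquantile) leaves log ratios as they are by construction. Keeping outlier-flagged spots, chosen after seeing that the CTSS spot was flagged, gave CTSS -0.17 between the subsets. The count of probes at least 2-fold above the self-hybridisation on all 4 subset arrays was 729, and 401 when every spot entered the background model. The CTSD probes had the lowest signal over background of the protease probes, and CTSS has a single CD26- value.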

Other observations

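The Cy5 signal of the brighter CTSF probe, which reads the same total DC RNA on every array, was 143 and 102 in units of spot signal on the CD26+ arrays of sheep 30066 and 10081, 75.4 and 141 on the CD26- arrays of the same sheep, and 66.5 on the self-hybridisation. The second CTSF probe gave 127 and 80.3 on the CD26+ arrays, 70.6 and 108 on the CD26- arrays, and 72.6 on the self-hybridisation. Both probes thus had their lower Cy5 values on the arrays where the Cy3 signal of CTSF was low. The cause was not tested.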
